A study of Homo sapiens with 9 samples.

Results

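Human neural crest-like cells were compared after the small molecule SB431542 was withdrawn from their medium and while it was kept there. The comparison takes 6 of the 9 RNA-seq samples of the series: 3 cultures of the group F_FSB against 3 cultures of the group FSB, assigned by the titles of the samples. All 9 cultures came from the H9 human embryonic stem cell line, which was differentiated for 6 days in chemically defined medium with 10 µM SB431542. Cells with high CD271 (the nerve growth factor receptor NGFR) and without CD73 (NT5E) were then sorted and grown on fibronectin under 5% CO2 and 5% O2, and RNA was taken at passage 6 to 7. The FSB cultures were expanded with FGF2 (5 to 10 ng/ml) and SB431542 (3 to 5 µM). The F_FSB cultures, called the withdrawn cultures here, spent 4 passages in the same FSB medium and then 3 passages with FGF2 alone. The remaining group, F, was expanded with FGF2 alone, and its levels are given only beside the others. Every group had therefore met SB431542 during differentiation, all come from 1 cell line, and the sample labels describe the cells as CD271+CD73+ whereas the growth protocol describes a CD73-negative sort. Of 25593 loci in each expression table, 13216 had an FPKM (fragments scaled to transcript length and to the mapped fragments of the library) of 1 or more in at least 3 of the 9 libraries with an estimate marked as OK in all, and these were tested.

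SB431542 blocks the kinase activity of the type I receptors TGFBR1, ACVR1B and ACVR1C, through which TGF-beta, activin and nodal ligands act. A ligand joins type II and type I receptors, the type I receptor phosphorylates SMAD2 and SMAD3, and these enter the nucleus with SMAD4 to regulate genes for matrix, cytoskeleton, growth arrest and feedback inhibitors. BMP ligands use other type I receptors and SMAD1, SMAD5 and SMAD9, which the compound largely spares. Cranial neural crest gives rise to ectomesenchyme, the connective tissue, cartilage and bone of the face, and mesenchymal stromal cells share many of the matrix genes that TGF-beta regulates.

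The relative depth of the libraries, read from the smallest FPKM steps, was 82.6% to 100% of the deepest in 8 libraries and 60.2% in F_FSB replicate 2, which also had 111389 of its summed 506146 FPKM on the small RNA locus MIR4461. Across tested genes the FSB libraries correlated with each other at 0.964 to 0.983 and the withdrawn libraries at 0.916 to 0.947, so the withdrawn cultures were the less even group. The root mean square standard deviation per gene was 0.30 on the log2(FPKM + 1) scale in FSB and 0.46 in F_FSB. The series describes 3 biological replicates a group, and p-values measure the spread between these samples. In bulk RNA, fewer cells of a type and less RNA per cell cannot be told apart. SOX10, the defining factor of early migratory crest and its glial derivatives, was at 0.0993, 0.0518 and 1.69 FPKM in FSB replicates 1 to 3 and at 0, 0 and 0.0171 in the withdrawn replicates. It was thus near 0 in 5 of the 6 libraries, although both groups carry a crest label. The 10 markers of pluripotent cells summed to 13.37 to 27.4 FPKM in the FSB libraries and to 1.65 to 6.38 FPKM in the withdrawn ones, and 2 of the 3 that could be tested (DPPA4 and L1TD1) were lower. The call for DPPA4 was lost without any one FSB library or F_FSB replicate 2 or 3 (limma adjusted p 0.063 to 0.11), and after scaling by median ratios or quantiles or with no filter. The defining pluripotency factors POU5F1, NANOG and SOX2 were too low to be tested, with means of 0.0649, 0.0171 and 0.169 FPKM in FSB and 0.385, 0.0862 and 0.0431 FPKM in the withdrawn cultures.

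Withdrawal was accompanied by a broad change of the transcriptome (the plot of difference by level). By limma with Benjamini-Hochberg adjustment, 5527 of 13216 genes (41.8%) passed an adjusted p of 0.05. Of all tested genes, 1805 (13.7%) were higher and 3722 (28.2%) were lower in the withdrawn cultures. The 3 libraries of one group lay entirely above or below the 3 of the other for 7378 genes (55.8%). Most calls were small, since 4017 of them differed by less than 1 on the log2(FPKM + 1) scale, while 704 genes were higher and 806 lower by 1 or more. The median difference over all tested genes was -0.13, and it moved to 0.0046 when libraries were scaled by median ratios. The share of calls that were higher was 32.7% on the deposited scale, 49.8% after scaling by median ratios, 45.7% after quantile normalization and 25.5% after scaling to the same sum. Scaling to the same sum depends on the summed FPKM, and that of F_FSB replicate 2 over all loci held 111389 on MIR4461. The part of that locus in the 25.5% was not tested. No gene called on the deposited scale was called in the opposite direction under any of the alternatives tried. The counts and medians given for gene lists below cover only the members that passed the filter on low values, and shares of a list near 13.7% higher or 28.2% lower do not set the list apart from all tested genes. Many lists share members, so their counts are not independent of each other. The LTBP genes, for example, are counted both as TGF-beta regulators and as elastic fibre genes, and COL1A1 both as a target and as a collagen.

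**Figure D1:**
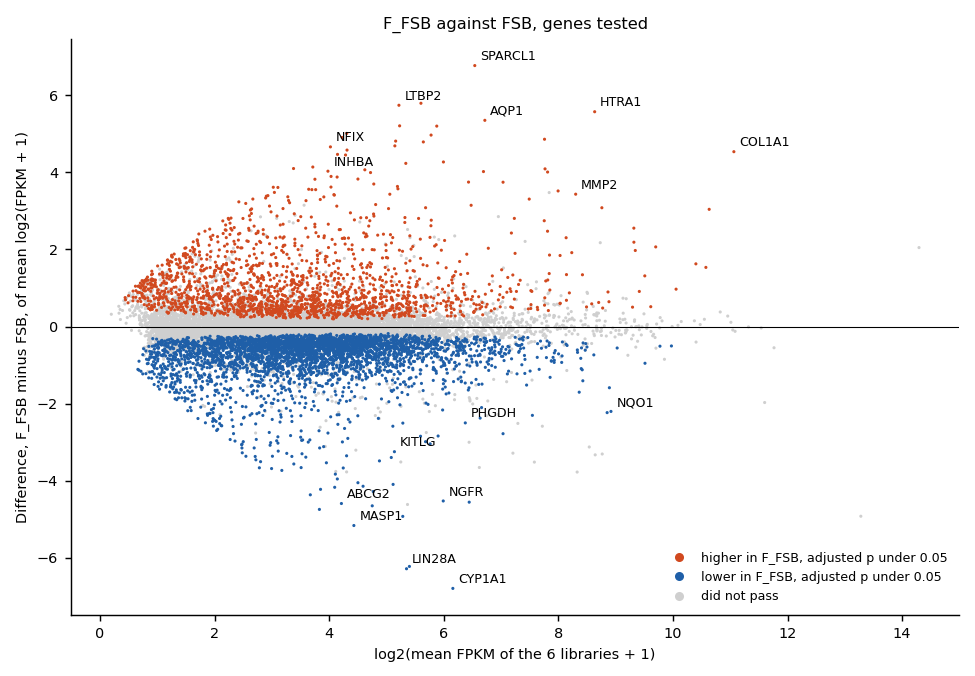
Each point is 1 of 13216 tested genes, placed by the log2 of its mean FPKM over the 6 libraries plus 1 (horizontal) and by the F_FSB minus FSB difference of mean log2(FPKM + 1) (vertical), with 1805 higher calls in orange, 3722 lower calls in blue and the rest in grey. SPARCL1 at 6.77 and CYP1A1 at -6.80 lie at the extremes, and COL1A1 combines a large difference with one of the highest levels.

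The largest increases included SPARCL1, EMP1 and LTBP2. SPARCL1, a secreted relative of the matrix protein SPARC (chr4:88394487-88450655, GRCh37), read 0.603, 0.424 and 0.38 FPKM in FSB replicates 1 to 3 and 160.4, 310 and 80.9 FPKM in the withdrawn replicates. LTBP2, a member of the latent TGF-beta binding protein family that associates with microfibrils (chr14:74964886-75079034), read 0.395, 0.335 and 0.257 FPKM in FSB and 71.6, 93.1 and 51.5 FPKM after withdrawal. The groups were far apart in both, with every withdrawn library above 50 FPKM and every FSB library below 1. The differences were 6.77 ± 0.47 (SE) for SPARCL1 and 5.74 ± 0.29 for LTBP2 on the log2(FPKM + 1) scale, with limma adjusted p-values of 0.00010 and 2.2e-05. EMP1, a tetraspan membrane protein, went from a mean of 0.591 to 94.5 FPKM. HTRA1, a secreted serine protease that cleaves matrix proteins, read 19.3, 20.8 and 7.67 FPKM in FSB and 484, 962 and 883 FPKM after withdrawal (5.57 ± 0.38, adjusted p 9.4e-05). AQP1, a water channel, read 4.3, 5.92 and 1.76 FPKM in FSB and 137, 324 and 152 FPKM after withdrawal (5.35 ± 0.49, adjusted p 0.00025). The growth factor HGF (hepatocyte growth factor) went from 1.79 to 114 FPKM on average. Also among the 15 largest increases were SCG2, a granule protein, MFAP4, a microfibril protein, NTN4, a netrin, ITGBL1, MGP, a matrix Gla protein that inhibits calcification, the proteoglycan DCN and the transcription factor NFIX. MGP was uneven, at 9.04, 188 and 11.6 FPKM in the withdrawn replicates, and its limma adjusted p of 0.032 became 0.083 without F_FSB replicate 2. Its call was also lost without any 1 of the FSB libraries, at adjusted p-values of 0.081, 0.082 and 0.075.

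The largest decreases included CYP1A1, LIN28A and TAC1. CYP1A1, a xenobiotic-metabolizing cytochrome P450 (chr15:75011883-75017877), read 137, 161 and 124 FPKM in FSB and 0.346, 0.404 and 0.0758 FPKM after withdrawal (-6.80 ± 0.13, limma adjusted p 9.9e-08). LIN28A, an RNA-binding protein that blocks maturation of let-7 miRNAs (chr1:26737269-26756219), read 78.9, 74.3 and 85.4 FPKM in FSB and 0.0136, 0.0529 and 0.0239 FPKM after withdrawal (-6.29 ± 0.08, adjusted p 9.3e-09). No withdrawn library reached 1 FPKM for either gene. TAC1, the precursor of the neuropeptide substance P, read 94.1, 117 and 36.5 FPKM in FSB and was listed at 0 in all 3 withdrawn libraries. TRIM71, a let-7 target expressed in stem cells, went from 23.3 to 0.191 FPKM, and ABCG2, a drug efflux transporter, from 34.6 to 0.466 FPKM. Also among the 15 largest decreases were the complement-activating protease MASP1, the protease inhibitor A2M, IGDCC3, NGFR, the cartilage collagen COL2A1, the laminin chain LAMA1, SPSB4, the smooth muscle protein LMOD1 and RARRES2 (chemerin). RARRES2 and A2M were uneven within the withdrawn group, at 0.676, 12.8 and 0.932 and 2.4, 15.3 and 2.78 FPKM, with the highest value of each in replicate 2.

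**Figure D2:**
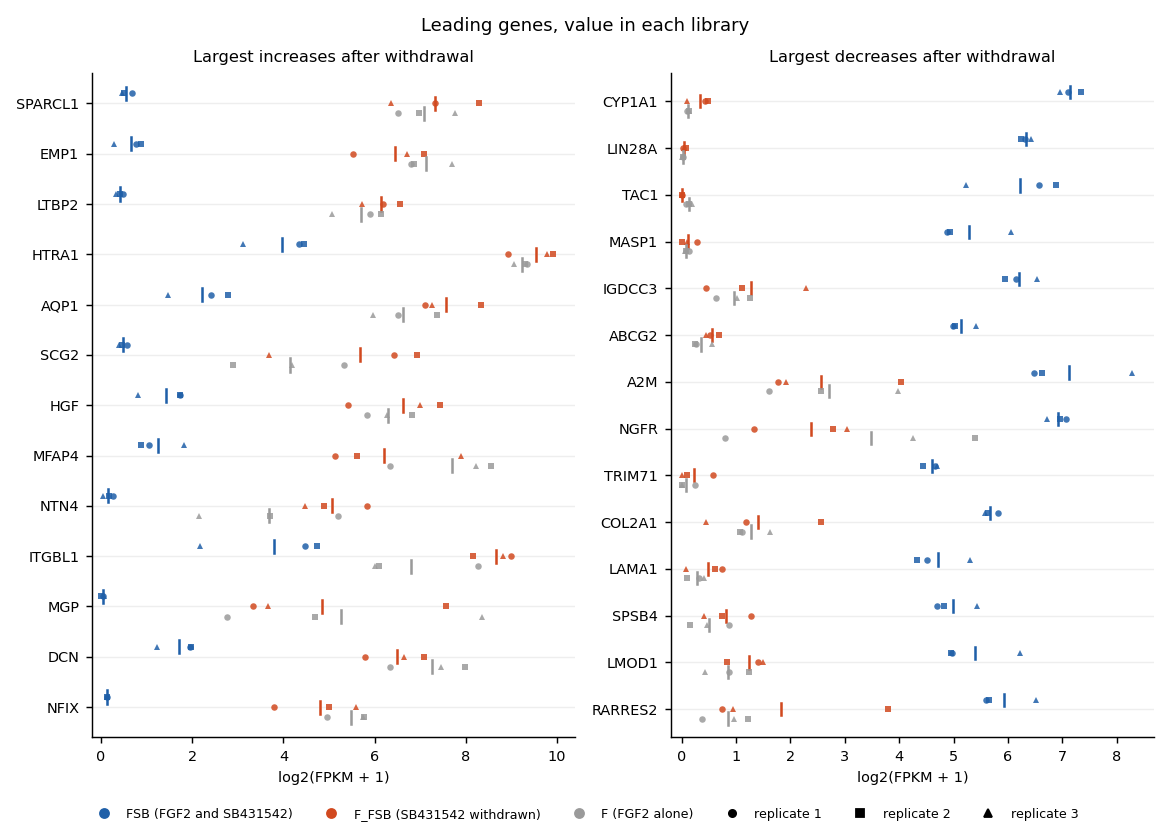
Values of log2(FPKM + 1) in each library for 13 of the 15 genes with the largest increases (left) and 14 of the 15 with the largest decreases (right), with FSB in blue, F_FSB in orange and F in grey, a marker shape per replicate and a bar at each group's mean. The 27 genes shown were chosen among those whose FSB and F_FSB libraries do not overlap, and MGP and SCG2 spread most within F_FSB on the left.

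Ligands of the TGF-beta family were higher after withdrawal in 3 of 6 tested cases and lower in 1, with a median difference of 1.18 beside -0.13 for all genes. That median covers only the 6 ligands above the filter: with no filter 13 were tested, 3 were higher and none lower, and the median was -0.025. INHBA, the subunit of activin A, read 0.736, 0.791 and 0.616 FPKM in FSB and 37, 33.8 and 15.6 FPKM after withdrawal (4.03 ± 0.41, limma adjusted p 0.00038). TGFB3 read 1.65, 2.02 and 3.21 FPKM in FSB and 16.1, 19.8 and 6.59 FPKM after withdrawal (adjusted p 0.0029). In both genes the lowest withdrawn value was replicate 3, still above every FSB library. GDF15, a stress-responsive ligand, also rose, from 1.47 to 4.67 FPKM. It was listed by family, and not as a ligand of the receptors that the compound blocks. TGFB1 did not pass and its libraries overlapped, at 41.8, 49.6 and 46.8 FPKM in FSB and 65.2, 49.4 and 30.8 FPKM after withdrawal. TGFB2 read 33.4, 37.1 and 22.6 FPKM and 129, 51.9 and 50.1 FPKM, with every withdrawn library above every FSB library but a spread that left its adjusted p at 0.35. GDF11 was the 1 lower ligand (-0.72 ± 0.23, adjusted p 0.035), and its call was lost without FSB replicate 1 or 3 or F_FSB replicate 1 or 2 (adjusted p 0.062 to 0.10), and after scaling by median ratios or quantiles. NODAL and LEFTY2 stayed under 0.5 FPKM in all 6 libraries and were not tested.

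Of 7 tested receptors 2 rose and 2 fell (28.6% each). TGFBR2, the type II receptor for TGF-beta, read 14.3, 14 and 20.4 FPKM in FSB and 57.7, 51.4 and 32.7 FPKM after withdrawal (1.47 ± 0.30, limma adjusted p 0.0062). ENG (endoglin, CD105), a co-receptor and stromal surface marker, read 81.8, 89.3 and 31 FPKM in FSB and 244, 276 and 182 FPKM after withdrawal (1.90 ± 0.36, adjusted p 0.0045). ACVR2B, an activin type II receptor, fell from 11.2, 9.35 and 10.4 FPKM to 1.9, 2.01 and 1.26 FPKM (-2.06 ± 0.14, adjusted p 9.0e-05), while its relative ACVR2A did not pass, at means of 3.48 and 2.81 FPKM. The activin type I receptor ACVR1B fell from 8.68 to 5.11 FPKM. TGFBR1, a direct target of the inhibitor, read 24.6, 25.5 and 24.8 FPKM in FSB and 21.1, 19.9 and 12.1 FPKM after withdrawal and did not pass (adjusted p 0.20). TGFBR3 (betaglycan), which presents TGF-beta to the other receptors, read 3.24, 14.5 and 27.5 FPKM in the withdrawn replicates, on both sides of the FSB libraries, and did not pass.

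Among 8 SMAD genes 4 fell, by 0.25 to 1.02 on the log2(FPKM + 1) scale, and none was called higher. SMAD3 read 27.6, 26.5 and 21.4 FPKM in FSB and 11.5, 11.3 and 12.8 FPKM after withdrawal (-1.02 ± 0.22, limma adjusted p 0.0078), and SMAD4 went from 11.7 to 8.63 FPKM (adjusted p 0.0041). The calls for SMAD2 and SMAD5, at differences of -0.27 and -0.25, were lost when libraries were scaled by median ratios (adjusted p 0.21 and 0.34) or when FSB replicate 1 or 2 or F_FSB replicate 1 or 3 was left out, and that for SMAD5 also without FSB replicate 3 or F_FSB replicate 2. SMAD7, the feedback inhibitor of the pathway, read 5.74, 6.19 and 6.34 FPKM in FSB and 13.9, 13.3 and 8.17 FPKM after withdrawal. Its libraries did not overlap, but it missed the threshold (0.82 ± 0.29, adjusted p 0.052). It was called higher under 7 of the 16 alternatives, which were the stricter filter, median ratios, quantiles, the fit on 6 libraries with or without the replicate block, library weights and leaving out F_FSB replicate 3 (adjusted p 0.016 to 0.048). The count of no higher SMAD gene therefore rests on the settings used.

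Genes that modulate the pathway outside the cell or in the nucleus were higher in 10 of 19 cases and lower in 2. All 4 genes of the latent TGF-beta binding protein family rose: LTBP1 by 2.62, LTBP2 by 5.74, LTBP3 by 2.82 and LTBP4 by 2.30 on the log2(FPKM + 1) scale. The family name does not mean that each member binds the ligand. LTBP3 read 4.75, 3.73 and 5.98 FPKM in FSB and 33.9, 38.6 and 47.7 FPKM after withdrawal (limma adjusted p 0.00010). The activin antagonist FST (follistatin) was at or below 0.135 FPKM in FSB and at 1.62, 8.39 and 17.5 FPKM in the withdrawn replicates. THBS1, a thrombospondin that activates latent TGF-beta, read 49.6, 61.7 and 20.4 FPKM in FSB and 111, 256 and 365 FPKM after withdrawal. The nuclear corepressors of SMADs also rose, SKI from 21.6 to 41.8 FPKM and SKIL from 4.8 to 20.9 FPKM. PMEPA1, a membrane protein that sequesters SMAD2 and SMAD3, read 0.439, 0.394 and 0.214 FPKM in FSB and 10.5, 9.83 and 3.08 FPKM after withdrawal (2.57 ± 0.42, adjusted p 0.0023). The corepressor TGIF2 fell from 23.8 to 11.2 FPKM. The second lower call, STRAP at -0.32, was lost without any one of FSB replicates 1 to 3 or F_FSB replicates 1 and 3, with adjusted p-values of 0.054 to 0.12, which left 1 lower gene.

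Of 27 tested genes known as TGF-beta targets in other cells, 12 rose, 4 fell and 11 did not pass, with a median of 0.82. COL1A1, the main chain of type I collagen (chr17:48261457-48279000), read 166, 156 and 207 FPKM in FSB and 3835, 3825 and 4645 FPKM after withdrawal, a 23.3-fold difference of means (4.54 ± 0.19, limma adjusted p 9.4e-06). TGFBI, a matrix protein named for its induction by TGF-beta, read 74.4, 74.8 and 62.5 FPKM in FSB and 306, 436 and 1640 FPKM after withdrawal. JUNB, an AP-1 factor, read 2.87, 3.27 and 3.88 FPKM and 17.6, 21.1 and 14.3 FPKM, and the repressor BHLHE40 read 3.46, 3.37 and 2.09 FPKM and 14.1, 21.2 and 13.1 FPKM. FN1 (fibronectin) went from 632 to 2069 FPKM. In each of these 5 genes the groups were separate. Several textbook targets did not pass. CTGF read 165, 209 and 162 FPKM in FSB and 308, 159 and 87 FPKM after withdrawal, and COL4A1 read 509, 502 and 462 FPKM and 476, 481 and 308 FPKM. The 4 that fell were TAGLN (transgelin), from 717 to 230 FPKM, SPHK1, a sphingosine kinase, from 32.2 to 4.34 FPKM, PDGFB, a platelet-derived growth factor chain, from 5.12 to 0.23 FPKM, and the crest repressor SNAI2, from 68.6 to 46.3 FPKM.

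**Figure D3:**
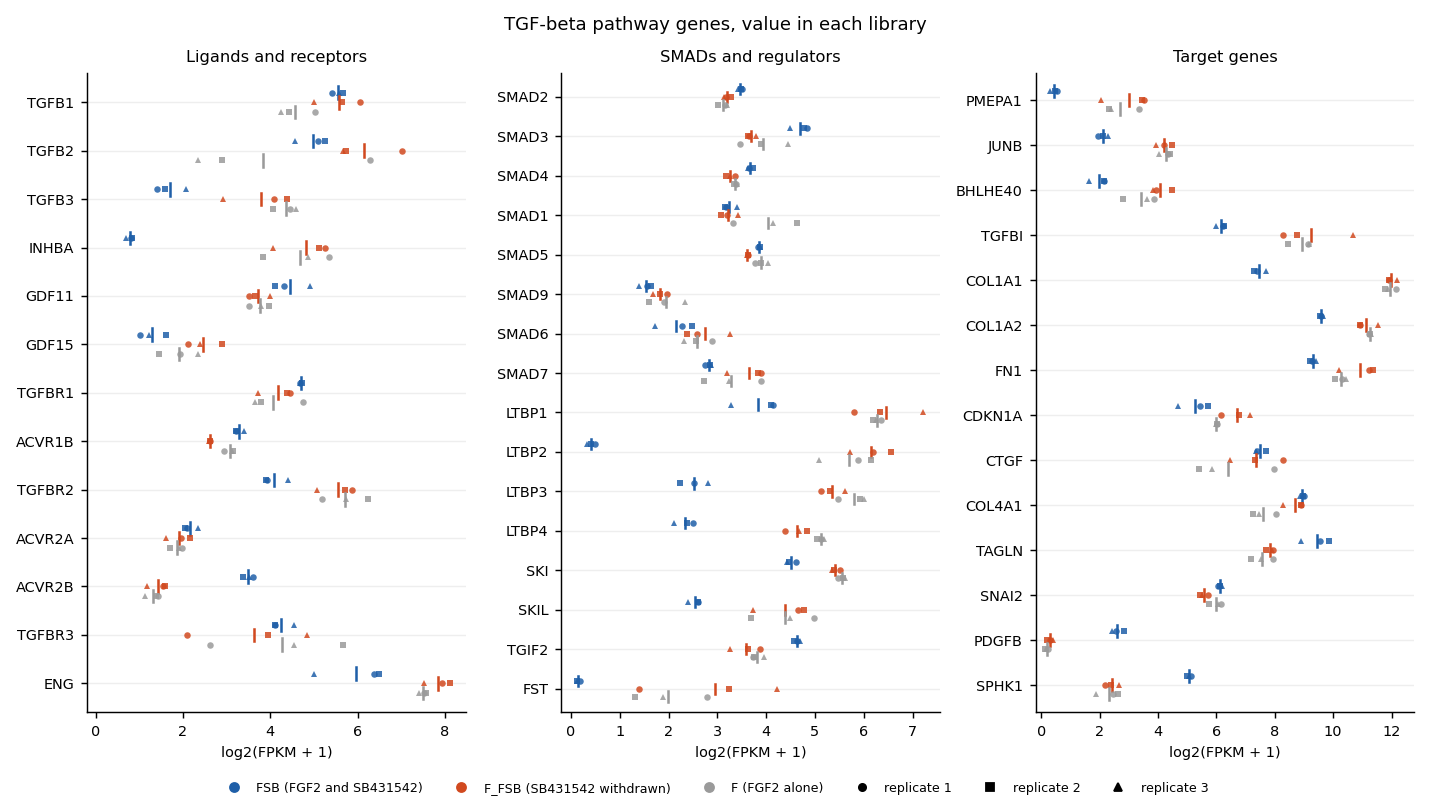
Values of log2(FPKM + 1) in each library for ligands and receptors (left), SMADs and regulators (middle) and target genes (right), with FSB in blue, F_FSB in orange, F in grey, a marker shape per replicate and a bar at each group's mean. INHBA, the 4 LTBP genes, PMEPA1 and COL1A1 separate the F_FSB from the FSB libraries, while TGFB1 and CTGF overlap.

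On the BMP side, 7 of 16 tested genes listed as ligands, receptors and antagonists rose and 2 fell. The 7 include BMP1, a procollagen protease that is counted again among the collagen-modifying enzymes. GDF6 read 0.604, 0.525 and 0.614 FPKM in FSB and 10.6, 11.9 and 28 FPKM after withdrawal (3.37 ± 0.57, limma adjusted p 0.0027), and the receptors ACVR1 and BMPR2 went from 8.01 to 18.6 and from 12.8 to 26 FPKM. BMP7 fell from 6.1 to 0.0988 FPKM and BMP2 from 7.13 to 2.77 FPKM. The count of higher genes was 4 without FSB replicate 1 or F_FSB replicate 2, with BMP4 and the antagonist GREM1 among the calls lost in both cases. Of 12 BMP target genes 1 (UNC5B) rose and 2 fell (8.33% and 16.7%, both below the shares of all genes), and UNC5B lost its call without FSB replicate 2 or 3 or F_FSB replicate 1 or 2. ID3, an inhibitor of helix-loop-helix factors, read 126, 142 and 121 FPKM in FSB and 73.5, 62.4 and 68.2 FPKM after withdrawal (-0.92 ± 0.13, adjusted p 0.0013). ID1 read 119, 130.5 and 86.5 and 23.8, 38.1 and 70.9 FPKM, and its call was lost without FSB replicate 1 or 2 or F_FSB replicate 1 or 2 (adjusted p 0.056 to 0.078).

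Genes of the extracellular matrix were more often higher than lower. Of 14 fibrillar and fibril-associated collagens 8 rose, 1 fell and 5 did not pass (median 1.27). COL1A2, the second chain of type I collagen, went from 771 ± 29.3 to 2278 ± 571 FPKM (SD, n = 3 each), a 2.96-fold difference of means. COL3A1, the chain of type III collagen, did not pass, at 1033, 1072 and 1722 FPKM in FSB and 1423, 1247 and 1462 FPKM after withdrawal. COL14A1, COL16A1 and COL21A1, which decorate fibrils or basement membranes, rose by 3.06, 2.12 and 4.14 on the log2(FPKM + 1) scale. COL21A1 was at or below 0.0578 FPKM in every FSB library and at 5.52, 18.6 and 48.5 FPKM after withdrawal. COL2A1, the collagen of cartilage, was the 1 that fell, from 55.6, 48.3 and 47 FPKM to 1.25, 4.93 and 0.36 FPKM (-4.28 ± 0.46, limma adjusted p 0.00046). Among microfibrillar and pericellular collagens 4 of 8 rose and 2 fell: COL6A1 and COL6A2, the beaded-filament chains, went from 228 to 1047 and from 319.8 to 1341 FPKM, while the membrane collagens COL13A1 and COL25A1 fell to 1.75 and 2.1 FPKM from 19.5 and 13.8 FPKM.

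Enzymes that modify and trim collagen were higher in 15 of 25 cases and lower in 1 (median 0.70). The higher count was 11 without FSB replicate 1 or F_FSB replicate 2 or 3, and 17 after scaling by median ratios. PCOLCE, which enhances cleavage of the procollagen tail, read 85.4, 94.3 and 91.9 FPKM in FSB and 363, 375 and 671 FPKM after withdrawal (2.30 ± 0.25, limma adjusted p 0.00048). LOX, a lysyl oxidase that cross-links collagen and elastin, read 11.2, 13.2 and 7.46 FPKM and 73.2, 57.9 and 114 FPKM. The lysyl hydroxylase PLOD2, the collagen chaperone FKBP10 and the procollagen protease BMP1 rose by 1.60, 0.91 and 1.45. SERPINH1, the collagen chaperone HSP47, did not pass, at 375, 404 and 322 FPKM and 360, 471 and 508 FPKM.

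Elastic fibre and microfibril genes were higher in 13 of 18 cases and lower in 1, with a median of 2.33. ELN (elastin) read 2.24, 2.23 and 0.583 FPKM in FSB and 14.2, 11.9 and 31 FPKM after withdrawal (2.85 ± 0.47, limma adjusted p 0.0024). FBLN2 and FBLN5, fibulins that guide elastic fibre assembly, went from 9.17 to 56 and from 11.1 to 71.8 FPKM. MFAP4 read 1.07, 0.835 and 2.52 FPKM and 34, 48.3 and 237 FPKM, highest in replicate 3. FBN2, the fetal fibrillin, did not pass, at means of 103 and 87.2 FPKM, whereas FBN1 rose from 67.8 to 188 FPKM. The 1 lower member, FBLN7, lost its call without FSB replicate 1 or 2 or F_FSB replicate 1 (adjusted p 0.051 to 0.071). Of 21 matricellular genes 14 rose and 2 fell (median 1.59). The higher count was 10 with no filter, with the replicate block or without FSB replicate 2 or F_FSB replicate 2, and 15 with a pseudocount of 0.1. THBS2 read 8.44, 8.11 and 1.39 FPKM in FSB and 73.1, 116 and 169 FPKM after withdrawal (4.27 ± 0.73, adjusted p 0.0028). The adhesive proteins SPON1 and VTN (vitronectin) fell, SPON1 from 9.09, 8.36 and 18.2 FPKM to 0.11, 0.101 and 0.00879 FPKM. Among small leucine-rich proteoglycans 5 of 10 rose and none fell. DCN (decorin) read 2.84, 2.93 and 1.32 FPKM in FSB and 54.2, 134 and 98.5 FPKM after withdrawal (4.79 ± 0.47, adjusted p 0.00032) and BGN (biglycan) went from 414 to 1041 FPKM. The count of 5 was 2 without FSB replicate 1 or 2, 3 without F_FSB replicate 2 and 8 without F_FSB replicate 1. ASPN, FMOD and OGN, which were called only in that last case among the 6, were each lowest in F_FSB replicate 1 of the withdrawn cultures.

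Of 19 basement membrane genes 8 were higher (42.1%, beside 13.7% of all genes) and 5 lower (26.3%, near the 28.2% of all genes). LAMA1, the laminin chain of early embryonic basement membranes, fell from 21.7, 19 and 38.5 FPKM to 0.676, 0.537 and 0.0626 FPKM (-4.23 ± 0.27, limma adjusted p 7.4e-05). LAMA2, found in muscle and nerve basement membranes, read 0.0835, 0.126 and 0.103 FPKM in FSB and 4.75, 6.84 and 4.72 FPKM after withdrawal, and LAMA4 went from 93.7 to 189.9 FPKM. The linkers NID1 and NID2 fell from 216 to 92.4 and from 100.1 to 29.7 FPKM. COL4A1 and COL4A2, the core collagens of the structure, did not pass. Of 16 integrin genes 3 rose (ITGA4, ITGA5 and ITGB5) and 5 fell, shares of 18.8% and 31.2% that lie near those of all genes. ITGA6, a laminin receptor chain, read 17.1, 18.1 and 18.5 FPKM in FSB and 2.45, 3.34 and 2.66 FPKM after withdrawal (-2.31 ± 0.28, adjusted p 0.00068), and ITGA1, a collagen receptor chain, went from 102 to 22.6 FPKM. Among matrix proteases and inhibitors 12 of 26 rose and 3 fell. MMP2 (gelatinase A) read 42, 39.1 and 84.6 FPKM and 575, 496 and 651 FPKM (3.43 ± 0.28, adjusted p 0.00018), and its inhibitors TIMP1 and TIMP2 went from 94.3 to 364 and from 158 to 405 FPKM. ADAMTS12 fell from 83.8 to 20.1 FPKM.

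Surface proteins used to define mesenchymal stromal cells were higher in 9 of 16 cases and lower in 2. CD44, the hyaluronan receptor, read 8.58, 8.66 and 0.49 FPKM in FSB and 32.3, 39.3 and 73.2 FPKM after withdrawal (3.17 ± 0.70, limma adjusted p 0.0082). ANPEP (CD13) read 5.3, 4.83 and 7.02 FPKM and 32.2, 69.4 and 72.1 FPKM, VCAM1 5.28, 4.6 and 4.13 FPKM and 14.6, 20.9 and 60.2 FPKM, and CSPG4 (NG2) 4.71, 5.22 and 5.08 FPKM and 16, 22.5 and 23.9 FPKM. NT5E, the CD73 by whose absence the cells had been sorted, read 24.3, 26.5 and 9.26 FPKM in FSB and 68.1, 46.2 and 74.8 FPKM after withdrawal (adjusted p 0.0099). NGFR, by which they had been sorted, read 134, 124 and 104 FPKM and 1.5, 5.92 and 7.26 FPKM (-4.53 ± 1.05, adjusted p 0.0098). THY1 (CD90), PDGFRA and PDGFRB did not pass. THY1 read 31.8, 34.1 and 22 FPKM and 30.9, 46.3 and 4.94 FPKM, lowest in F_FSB replicate 3. The lower count became 1 without FSB replicate 1 or 2 or F_FSB replicate 3.

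Neural crest genes, most of them transcription factors, were lower in 7 of 14 tested cases and higher in none (median -1.08). The list also holds the receptors NGFR and ERBB3 and the helix-loop-helix inhibitor ID3, and NGFR and ID3 are among the lower calls. With no filter on low values 9 of 21 were lower and the median was -0.54. TFAP2A, an early crest specifier, read 64.4, 62.4 and 55.3 FPKM in FSB and 29.7, 21 and 12.4 FPKM after withdrawal (-1.56 ± 0.33, limma adjusted p 0.0069), and its relative TFAP2C went from 5.59 to 0.269 FPKM. ETS1 read 47.6, 48.9 and 72 FPKM and 18.4, 16.4 and 10.2 FPKM, and SOX8 went from 8.6 to 0.845 FPKM. SOX9, the chondrogenic crest factor named in the title of the series, read 43.7, 36.5 and 22.2 FPKM in FSB and 10.6, 22.7 and 25.1 FPKM after withdrawal and did not pass (adjusted p 0.23). In SOX9 replicate 1 was the lowest of the withdrawn libraries, and the highest of them lay above the lowest FSB library. Of 27 ectomesenchyme factors 4 rose (14.8%) and 6 fell (22.2%), about the shares of all genes. TWIST1, which drives crest cells toward mesenchyme, fell from 99.5, 96.2 and 92.2 FPKM to 34.1, 23.2 and 39.8 FPKM (-1.57 ± 0.23, adjusted p 0.0014), and TBX3 from 34.3 to 3.77 FPKM. PRRX1, a general marker of craniofacial and limb mesenchyme, did not pass, at 177 and 206 FPKM. TBX2, which rose, read 0.512, 0.65 and 0.191 FPKM and 6.23, 27.9 and 39.3 FPKM. The 4 nuclear factor I genes, which act late in progenitor differentiation, all rose: NFIA by 2.04, NFIB by 2.40, NFIC by 2.27 and NFIX by 4.66. NFIX was at or below 0.102 FPKM in FSB and at 12.9, 30.8 and 47.4 FPKM after withdrawal.

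LIN28A and LIN28B block let-7, and let-7 represses a set of embryonic growth genes. A mixed list of LIN28A, LIN28B, let-7 targets and other oncofetal genes had 14 of 21 tested members lower and 3 higher (median -1.14). Its counts are therefore not counts of let-7 targets. LIN28B read 62.4, 67.7 and 51.4 FPKM in FSB and 8.67, 5.06 and 2.31 FPKM after withdrawal (-3.40 ± 0.56, limma adjusted p 0.0023). ARID3B, MYCN and SALL4 fell, with MYCN at 20.1, 17.5 and 15.1 FPKM in FSB and 1.04, 0.84 and 0.512 FPKM after withdrawal. IGF2BP1 went from 64.9 to 22.5 FPKM. The 3 that rose were IGF2, HMGA2 and PLAGL1. IGF2, a fetal growth factor, read 158, 127 and 804 FPKM and 640.2, 2936 and 4855 FPKM, with overlap between the groups (adjusted p 0.039). Its reads may be shared with the overlapping INS-IGF2 locus. The calls for IGF2 and HMGA2 were both lost without FSB replicate 2 or F_FSB replicate 3, which left 1 higher member and 12 lower ones, and that for IGF2 also without FSB replicate 1 or F_FSB replicate 2 and that for HMGA2 without FSB replicate 3 or F_FSB replicate 1.

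Genes of contractile cells were lower in 8 of 23 cases (34.8%, beside 28.2% of all genes) and higher in 2. CNN1 (calponin) read 31, 39.95 and 27.2 FPKM in FSB and 8.94, 3.62 and 4.35 FPKM after withdrawal (-2.41 ± 0.30, limma adjusted p 0.00077), and LMOD1 went from 44.8 to 1.41 FPKM. ACTA2 (smooth muscle actin), a classical marker of TGF-beta-treated fibroblasts, did not pass, at 34.6, 42 and 59.3 FPKM in FSB and 29.5, 123 and 208 FPKM after withdrawal. ACTA2 in F_FSB replicate 1 lay below every FSB library and in replicates 2 and 3 above every one, and the gene was called higher without F_FSB replicate 1 (adjusted p 0.0081). The lower count was 5 without FSB replicate 2 and 5 after scaling by median ratios.

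Genes of DNA replication and mitosis fell almost without exception, whereas G1 regulators moved both ways. Of 37 DNA replication genes 35 fell and none rose (median -1.26 beside -0.13 for all genes), and of 30 mitosis genes all 30 fell (median -1.01). The mitosis count was 21 without FSB replicate 1, 20 without FSB replicate 2 and 23 without F_FSB replicate 3. It was 26 after scaling by median ratios, where the replication count was 33. MCM7, a subunit of the replicative helicase, read 110.2, 107 and 92.9 FPKM in FSB and 35.6, 32.1 and 24.8 FPKM after withdrawal (-1.73 ± 0.20, limma adjusted p 0.00062). CDC6, which loads that helicase, read 29.3, 29.9 and 23.6 FPKM and 9.9, 10.1 and 4.57 FPKM. CDK1, the mitotic kinase, read 46.1, 53.5 and 37.6 FPKM and 25.2, 18.7 and 16.1 FPKM, and the spindle checkpoint gene MAD2L1 read 31.6, 41 and 30.1 FPKM and 14.4, 16.2 and 10.02 FPKM. The groups were separate in these 4 genes, and the FSB means were 3.35-fold, 3.37-fold, 2.29-fold and 2.53-fold the withdrawn means, respectively. CCNE1 and CCNE2, the cyclins E that start S phase, were the 2 replication genes that did not pass. The 9 listed histone genes summed to only 19.3 to 28.4 FPKM in the FSB libraries and to 29.6 to 40.9 FPKM in the withdrawn ones. Of these, 5 could be tested and none was called (median 0.50). After scaling by median ratios or quantiles or with library weights, 4 were called higher. Whether such low levels follow S phase was not tested. Among 18 G1 regulators 8 fell and 6 rose. The cyclin CCND2 fell from 66.3, 58.5 and 67.5 FPKM to 12.4, 18.7 and 4.63 FPKM and CDK6 from 33.7 to 17 FPKM. The CDK inhibitor CDKN2A was at or below 0.0697 FPKM in FSB and at 2.29, 5.78 and 7.23 FPKM after withdrawal, CDKN2C went from 2.31 to 7.73 FPKM and CDKN1A from 39.2 to 106 FPKM. CDKN1B moved the other way, from 29.2 to 20.1 FPKM.

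Promoters (windows around the gene start, RefSeq, GRCh38.p14) of 6 lists were searched on both strands, each for 1 motif known for its class. Promoters were found for 32 of the 37 replication genes and 24 of the 30 mitosis genes. The E2F motif TTTNNCGC was present in 19 of 32 replication promoters (59.4%), against 6.90% of all 27305 promoters and 10.8% of the 10044 promoters matched to tested genes. The cell-cycle homology motif TTTGAA was present in 16 of 24 mitosis promoters (66.7%), against 15.4% of all promoters and 9.70% of those of tested genes. The other 4 lists were searched in the same way. The SMAD motif CAGACA was present in 2 of 20 TGF-beta target promoters, against 12.04% of those of tested genes, and the sterol response motif TCACNCCAC in 1 of 18 cholesterol synthesis promoters, against 1.09%. The xenobiotic response motif TNGCGTG was present in 2 of 6 promoters of the aryl hydrocarbon receptor list, against 7.40%, and the TEAD motif GGAATG in 4 of 10 promoters of YAP and TEAD targets, against 10.8%. These are matches of letters and not evidence of binding. Because nearly all members of the replication and mitosis lists fell, a pair of promoters that hold the motif is shown for each, MCM7 (chr7:100101348-100101647, minus strand) and CDC6 (chr17:40287629-40287928, plus strand) for replication and CDK1 (chr10:60778081-60778380, plus strand) and MAD2L1 (chr4:120066799-120067098, minus strand) for mitosis, written 5′ to 3′ along the gene with the matches in capitals.
MCM7: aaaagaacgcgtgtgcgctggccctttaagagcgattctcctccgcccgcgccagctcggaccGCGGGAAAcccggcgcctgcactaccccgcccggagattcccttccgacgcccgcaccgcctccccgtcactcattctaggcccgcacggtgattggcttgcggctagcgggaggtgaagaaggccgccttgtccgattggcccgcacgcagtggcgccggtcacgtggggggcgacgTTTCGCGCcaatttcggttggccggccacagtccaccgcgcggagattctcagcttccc
CDC6: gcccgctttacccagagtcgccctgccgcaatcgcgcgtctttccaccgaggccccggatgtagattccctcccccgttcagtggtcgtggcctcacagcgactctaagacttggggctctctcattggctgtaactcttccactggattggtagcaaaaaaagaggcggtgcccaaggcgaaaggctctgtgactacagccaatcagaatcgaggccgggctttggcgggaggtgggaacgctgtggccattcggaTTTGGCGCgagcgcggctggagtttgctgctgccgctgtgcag
CDK1: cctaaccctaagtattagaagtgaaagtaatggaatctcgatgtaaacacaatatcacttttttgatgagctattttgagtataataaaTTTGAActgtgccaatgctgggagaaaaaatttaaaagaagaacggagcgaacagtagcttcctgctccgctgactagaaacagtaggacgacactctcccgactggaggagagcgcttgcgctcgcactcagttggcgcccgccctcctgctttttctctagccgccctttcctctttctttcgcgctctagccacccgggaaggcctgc
MAD2L1: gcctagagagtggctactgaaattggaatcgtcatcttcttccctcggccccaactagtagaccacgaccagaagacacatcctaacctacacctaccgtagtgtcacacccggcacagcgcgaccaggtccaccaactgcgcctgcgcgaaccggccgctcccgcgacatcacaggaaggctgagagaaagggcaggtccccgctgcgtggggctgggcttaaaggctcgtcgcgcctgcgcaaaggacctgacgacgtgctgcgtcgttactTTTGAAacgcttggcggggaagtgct
Capitals mark TTTNNCGC in MCM7 and CDC6 and TTTGAA in CDK1 and MAD2L1. MCM7 holds 1 match on each strand, and the others hold 1 match on the strand shown.

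Lipid synthesis genes were mostly lower. Of 25 cholesterol synthesis genes 20 fell and 1 rose (median -0.99), and of 11 fatty acid synthesis genes 9 fell and none rose (median -1.01). The lower cholesterol count was 16 after scaling by median ratios or without FSB replicate 1 or 2 or F_FSB replicate 1. HMGCS1, an early enzyme of cholesterol synthesis, read 536, 556 and 408 FPKM in FSB and 173, 199 and 187 FPKM after withdrawal (-1.41 ± 0.15, limma adjusted p 0.00048). SCD, a fatty acid desaturase, read 813, 823 and 629.6 FPKM and 158, 108 and 233 FPKM. FASN, the fatty acid synthase, went from 131 to 45.9 FPKM. PMVK, a kinase of the mevalonate pathway, was the 1 that rose, from 10.3 to 15.1 FPKM. LPL, a lipase that releases fatty acids from lipoproteins, fell from 20.8 to 1.31 FPKM.

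Genes of amino acid supply under ATF4, the factor of the integrated stress response, fell in 12 of 20 cases and rose in 1 (median -0.90). PHGDH, the first enzyme of serine synthesis, read 155, 171 and 95.6 FPKM in FSB and 23.4, 27.8 and 19.3 FPKM after withdrawal (-2.50 ± 0.25, limma adjusted p 0.00037). The transporter SLC7A5 read 35.8, 40.6 and 21.1 FPKM and 2.75, 3.02 and 3.42 FPKM, and asparagine synthetase ASNS went from 32 to 7.21 FPKM. DDIT4, an inhibitor of mTORC1, was the member that rose, from 9.21 to 20.2 FPKM. Ribosome biogenesis and MYC target genes were lower in 17 of 21 cases and higher in none, by small amounts (median -0.60). NOLC1 went from 39.8 to 21 FPKM and nucleolin NCL from 396 to 248 FPKM. The count was 11 without FSB replicate 1 or 2 and 11 after scaling by median ratios.

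Genes regulated by the aryl hydrocarbon receptor moved both ways. Of 7 tested members 2 (CYP1A1 and NQO1) fell and 1 rose, shares of 28.6% and 14.3% close to those of all genes. CYP1B1, a related P450, moved opposite to CYP1A1, at 8.59, 8.47 and 9.3 FPKM in FSB and 25.4, 75.3 and 28.5 FPKM after withdrawal (2.00 ± 0.40, limma adjusted p 0.0053). The receptor AHR did not pass, at 32.4, 41.2 and 33.9 FPKM and 44.6, 34.8 and 25.9 FPKM, nor did TIPARP and AHRR. NQO1, an antioxidant reductase under both AHR and NRF2, read 735, 858 and 785 FPKM in FSB and 179, 202 and 138 FPKM after withdrawal (-2.20 ± 0.20, adjusted p 0.00025). Of 16 NRF2 target genes 7 fell and 1 rose. TXNRD1, a thioredoxin reductase, went from 80.04 to 34.6 FPKM and the cystine transporter SLC7A11 from 12.7 to 2.56 FPKM, while HMOX1 (heme oxygenase) rose from 2.08 to 5.36 FPKM and GCLC and GCLM did not pass. The count of lower NRF2 targets was 5 after scaling by median ratios, and the higher count was 2 without F_FSB replicate 2.

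Interferon-response and antigen-presentation genes were higher in 14 of 19 cases and lower in none (median 1.13). IFI44 was listed at 0 in all 3 FSB libraries and read 9.35, 11.2 and 5.59 FPKM after withdrawal. IRF9, the DNA-binding part of the interferon complex, read 6.3, 5.51 and 6.24 FPKM and 12.9, 12.3 and 14.2 FPKM (1.01 ± 0.09, limma adjusted p 0.00021). TAP1, which loads peptides onto HLA class I, read 0.552, 0.735 and 1.38 FPKM and 5.21, 3.3 and 4.62 FPKM, and HLA-E went from 21.4 to 45 FPKM. HLA genes share sequence with each other, so their separate levels are uncertain. ISG15 and IFIT1, interferon-induced genes of the same list, did not pass, at means of 16.8 and 18.5 FPKM and of 7.95 and 5.72 FPKM. B2M, the light chain of HLA class I, did not pass, at 189.9, 250.3 and 277 FPKM in FSB and 607, 224 and 617 FPKM after withdrawal. F_FSB replicate 2, the shallowest library, held the low value, and B2M was called higher without it (adjusted p 0.0041). Among 13 complement genes 6 rose and 2 fell, with C1S going from 0.745 to 7.37 FPKM and the membrane inhibitor CD59 from 13.4 to 48.6 FPKM.

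Among ligands and receptors of other growth factor pathways, the PDGF, VEGF, angiopoietin and HGF list had 10 of 22 higher (45.5%, beside 13.7% of all genes) and 5 lower. Its median was 0.82, and 0.30 with no filter on low values. HGF read 2.34, 2.3 and 0.745 FPKM in FSB and 42, 172 and 128 FPKM after withdrawal, and its receptor MET read 0.541, 0.557 and 0.276 FPKM and 11.4, 9.78 and 8.01 FPKM (2.87 ± 0.41, limma adjusted p 0.0013). KITLG, the ligand of KIT on crest-derived melanoblasts, fell from 60.7, 68.7 and 58 FPKM to 6.19, 8.61 and 3.27 FPKM (-3.25 ± 0.33, adjusted p 0.00038), and KIT itself from 10.8 to 1.55 FPKM. Of 24 FGF ligands, receptors and feedback genes 3 rose (12.5%) and 4 fell (16.7%), both below the shares of all genes. FGFR2 fell from 5.53, 5.11 and 6.18 FPKM to 0.309, 0.228 and 0.0649 FPKM, FGFR3 and FGFR4 fell to 0.339 and 0.326 FPKM, and FGFR1 did not pass, at 20.5 and 31.9 FPKM. The feedback genes SPRY1, SPRY2, DUSP6 and ETV4 did not pass. Of 31 WNT pathway genes 10 rose and 5 fell. RSPO3 (R-spondin 3), which strengthens WNT signals, read 1.91, 1.44 and 1.9 FPKM in FSB and 52, 36 and 48.5 FPKM after withdrawal (4.07 ± 0.37, adjusted p 0.00025), and the secreted protein DKK3 read 53.9, 62.1 and 17.3 FPKM and 462, 357 and 573 FPKM. The WNT target AXIN2 did not pass, at 1.38 and 1.66 FPKM. The WNT counts were 6 higher and 3 lower without FSB replicate 3 and 6 higher and 4 lower without F_FSB replicate 1. In the IGF system 3 of 14 rose (21.4%) and 2 fell (14.3%), with IGFBP7, a secreted binding protein, at 158, 196 and 175 FPKM and 1642, 919 and 734 FPKM and the adaptor IRS1 falling from 19.1 to 6.27 FPKM.

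**Figure D4:**
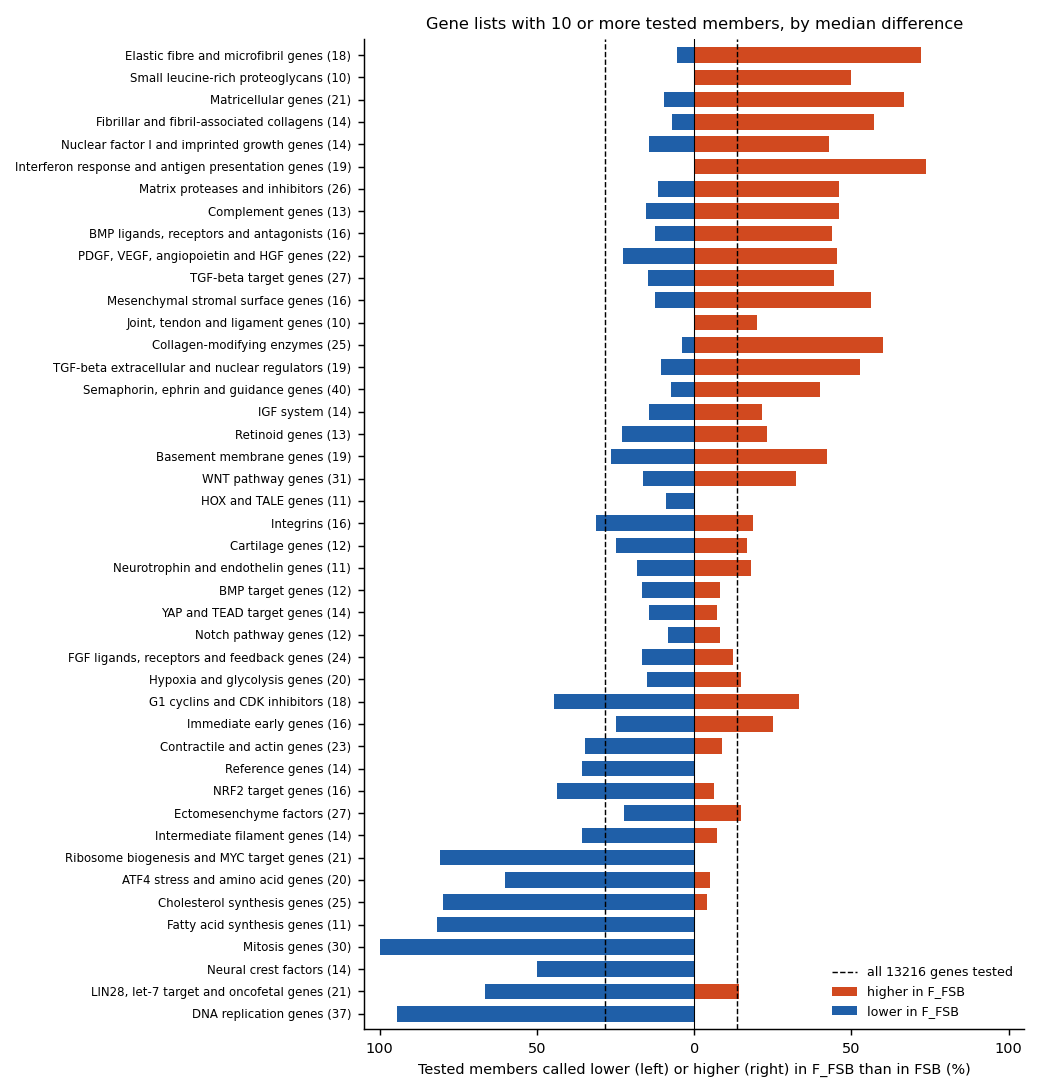
Percent of tested members called lower (blue, to the left) or higher (orange, to the right) in F_FSB than in FSB for each gene list with 10 or more tested members, ordered by the list's median difference, with the number tested in parentheses and dashed lines at 28.2% and 13.7% of all 13216 genes. Matrix lists lie at the top, and the DNA replication, mitosis and lipid synthesis lists lie at the bottom.

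Some genes that differ strongly among mesenchymal lineages were high in single withdrawn cultures. DLX5, a homeobox factor of the lower jaw, read 0.325, 0.301 and 0.115 FPKM in FSB and 0.213, 0.0612 and 80.5 FPKM after withdrawal. PITX1, a homeobox factor of jaw and hindlimb, read 0.0715, 0 and 40.8 FPKM in the withdrawn replicates and HAND2, a distal jaw and limb factor, 0.048, 0 and 20.2 FPKM. MSX1, another jaw factor, read 13.1, 12 and 8.85 FPKM in FSB and 0.149, 0.129 and 13.4 FPKM after withdrawal. F_FSB replicate 3 was thus the only withdrawn library above 1 FPKM for these 4 genes, and without it MSX1 was called lower (adjusted p 0.020). OGN (osteoglycin) was listed at 0 in the FSB libraries and read 0.221, 49.3 and 3.71 FPKM in the withdrawn ones, and POSTN (periostin) read 6.63, 5.57 and 17.8 FPKM in FSB and 61.9, 1146 and 63.7 FPKM after withdrawal. PRG4 (lubricin), the lubricating proteoglycan of joints, read 0.764, 59.4 and 15.3 FPKM in the withdrawn replicates. Replicate 2 was the highest for these 3 genes. POSTN and PRG4 were called higher (limma adjusted p 0.030 and 0.041), and both calls were lost without F_FSB replicate 2 (adjusted p 0.053 and 0.097) and without FSB replicate 1 or 2, and that for PRG4 also without FSB replicate 3 or F_FSB replicate 3. Over all tested genes, 175 spanned 3 or more log2 units among the withdrawn libraries and 58 among the FSB libraries, and replicate 2 was the one apart in 108 of the 175.

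**Figure D5:**
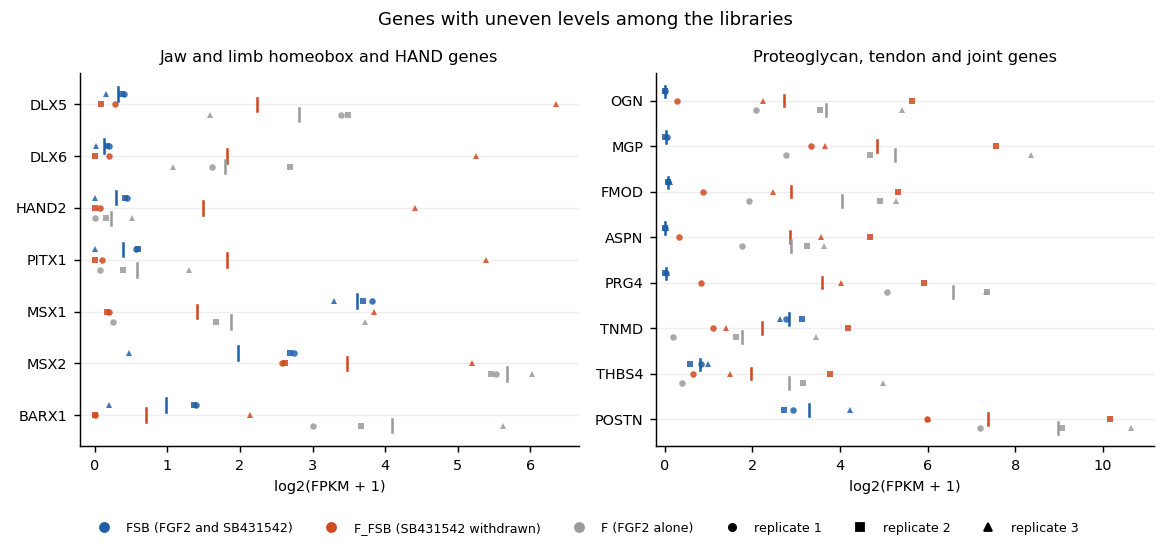
Values of log2(FPKM + 1) in each library for jaw and limb factors (left) and for proteoglycan, tendon and joint genes (right), with FSB in blue, F_FSB in orange, F in grey, a marker shape per replicate and a bar at each group's mean. F_FSB replicate 3 (triangle) is the high withdrawn library on the left and F_FSB replicate 2 (square) the high one on the right.

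Markers of other cell types were read as whole lists. The 10 crest markers summed to 342.4 to 376.4 FPKM in the FSB libraries and to 101.8 to 132.5 FPKM in the withdrawn ones, with 5 of 7 tested members lower. The 12 mesenchymal stromal markers summed to 2630 to 3390 FPKM and 8232 to 10140 FPKM, with 6 of 12 higher and 1 (TWIST1) lower. Most of that rise in the sum lay in COL1A1 and COL1A2. COL3A1, THY1, PDGFRA, PDGFRB and PRRX1 did not pass. The 8 central neuroectoderm markers summed to 191.6 to 256.6 FPKM in FSB and to 21.95 to 43.23 FPKM after withdrawal, and NES (nestin, also made by crest) was the 1 tested member, while SOX1 and PAX6 had FSB means of 0.00398 and 0.195 FPKM. The 10 Schwann cell and glial markers summed to 34.91 to 38.17 FPKM and to 63.11 to 93.99 FPKM, and the 10 smooth muscle or pericyte markers to 264.2 to 316.0 FPKM and 220.4 to 295.5 FPKM. Epithelial markers summed to 109.4 to 215.2 FPKM and 83.41 to 192.6 FPKM. Endoderm markers summed to 0.0353 to 0.596 FPKM in the 6 libraries and the endothelial markers to 1.88 to 6.99 FPKM. CDH5, an endothelial cadherin, fell from 3.42 to 0.208 FPKM, while PECAM1, at 0.233 and 0.694 FPKM, was not tested. Among glial markers PMP22 rose from 23.2 to 64.5 FPKM. The part of changing cell composition in the differences above was not tested. Common reference genes had a median of -0.27. GAPDH did not pass, at means of 1393 and 1453 FPKM, nor did ACTB, at 4120 and 2835 FPKM, and 5 of 14 were called lower (35.7%, beside 28.2% of all genes), a count that was 1 after scaling by median ratios, 2 without FSB replicate 1 or 2 or F_FSB replicate 3, and 3 without FSB replicate 3 or F_FSB replicate 1. TFRC, the transferrin receptor, was the reference gene that fell most, from 8.94 to 3.74 FPKM.

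The F cultures, which had not met SB431542 after differentiation, give the levels of cells that ended in the same medium as the withdrawn ones. SPARCL1 read 90.6, 124 and 217 FPKM in them, COL1A1 4511, 3550 and 3763 FPKM and LTBP2 58.3, 69.6 and 32.6 FPKM. CYP1A1 read 0.0677, 0.0995 and 0.0955 FPKM, LIN28A 0.0142, 0.0188 and 0 FPKM and MCM7 31.5, 28.2 and 46.8 FPKM. LIN28B read 4.3, 0.524 and 0.286 FPKM in F, 8.67, 5.06 and 2.31 FPKM in F_FSB and 62.4, 67.7 and 51.4 FPKM in FSB. NQO1 read 86.6, 58.8 and 54.6 FPKM in F, 179, 202 and 138 FPKM in F_FSB and 735, 858 and 785 FPKM in FSB, so the withdrawn libraries lay between the other groups with no overlap for NQO1. A comparison of F with FSB shares its FSB libraries with the one reported here, and no test against F was made.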

How the data were processed

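RNA-seq of 9 cultures (3 each of F, FSB and F_FSB) was used as deposited. The libraries were made from total RNA with a strand-specific kit, per the labels' protocols. TopHat2 2.0.12, Cufflinks 2.1.1 and GRCh37 are named in the submitters' processing notes, and the sources used here do not give the strand setting of the quantification, so overlapping and antisense genes may share reads. The deposited values are gene-level FPKM made by the authors, 1 table per library, per the file headers. They are not counts, so no count model was used, and depth is known only relative to the deepest library.

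From these, log2(FPKM + 1) was fitted with limma 3.58.1 (trend option, R 4.3.3) on all 9 libraries with 1 mean per group. F_FSB minus FSB was tested with Benjamini-Hochberg adjustment over 13216 genes at 0.05. A fold change on this scale understates that of low genes. On simulated data with few changed genes, the fit held its nominal rate of false calls when all groups had the same spread. It exceeded that rate several-fold when each group had its own spread per gene, as the libraries here may. Those spreads were taken from the 3 libraries of each group, which overstates how much they differ. The rate of false calls among the real genes is therefore not known from it. Tables and plots were made with Python 3.11.15, pandas 2.3.3 and matplotlib 3.10.9. Promoters were matched by symbol to RefSeq windows on GRCh38.p14, whose coordinates are not those of the GRCh37 expression tables.

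The genes named were the 15 largest increases and 15 largest decreases whose groups did not overlap and whose higher group averaged at least 5 FPKM, leaving out MIR, LOC and similar symbols, then for each list the 4 members with the smallest adjusted p and the 3 with the highest mean, and a fixed set of anchor genes. Some items are not reported here. Further members were named for their role after their values were seen. The comparison, the lists and the tests were chosen with earlier results of these data known. Alternatives were pseudocounts of 0.1 and 5, no filter and a stricter filter, 3 scalings, a fit on 6 libraries, a replicate block, library weights and leaving out each of the 6 libraries.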

Additional observations from a re-analysis of the deposited data

How the results depend on the processing

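The counts of 1805 higher and 3722 lower genes, and of 704 and 806 by 1 or more, stayed within 1.5 times under the 16 alternatives, with these exceptions. A pseudocount of 5 gave 339 higher and 324 lower by 1 or more, and scaling to the same sum gave 1202 higher genes. Leaving out 1 library gave 1255 to 1663 higher and 2766 to 3587 lower genes, and 592 to 698 and 705 to 898 by 1 or more. Without the shallowest library, F_FSB replicate 2, there were 1529 higher and 3587 lower genes. After scaling by median ratios, 2505 genes were higher and 2524 lower, so the balance of directions rests on the scale, and the cause was not tested. Same-numbered FSB and F_FSB libraries did not deviate together (correlations of -0.013, -0.022 and -0.14, beside -0.086 to 0.10 for other pairs), so the values gave no sign of pairing by number. Such correlations cannot exclude that same-numbered cultures were derived or handled together. With a replicate block in the fit on the 6 libraries there were 1354 higher and 2734 lower genes, and 3904 of the 5527 calls were kept. Among the genes named in the text, 189 were called, 169 of them under every alternative in which they were tested, and none changed direction. The fit assumes 1 spread for all groups, whereas the withdrawn libraries varied more than the FSB libraries. On simulated data with a spread of its own in each group more calls were false than the nominal rate allows. That simulation overstated the differences in spread and changed few genes, so its rate cannot be carried over to the calls here. Calls near the threshold are the least certain.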

Other observations

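Gene groups outside the pathway of the compound also differed between withdrawn and FSB cultures. Of 40 tested semaphorin, ephrin and guidance genes 16 rose (40.0%) and 3 fell (7.5%) (median 0.36). The higher count was 11 without FSB replicate 2 and 19 in the fit on the 6 libraries. DCC, a netrin receptor, read 0.211, 0.133 and 0.0513 FPKM in FSB and 11.1, 4.89 and 5.93 FPKM after withdrawal, and SEMA3C, a secreted semaphorin, 1.89, 1.84 and 2.38 FPKM and 49.4, 62.9 and 33.9 FPKM, with the groups separate for both. NRP2, a semaphorin receptor, fell from 102 to 15.4 FPKM. Among 9 tested classical and type II cadherins 3 rose and 2 fell (33.3% and 22.2%, beside 13.7% and 28.2% of all genes). CDH11, the cadherin of mesenchyme, went from 41.2 to 176 FPKM and CDH4 from 16.3 to 2.11 FPKM.

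Of 16 immediate early genes 4 were higher and 4 lower (25.0% each, beside 13.7% and 28.2% of all genes). KLF4 and KLF2, Krüppel-like factors, read 5.46, 4.98 and 9.89 and 30.2, 35.1 and 26.1 FPKM in the withdrawn replicates beside 0.419, 0.168 and 0.376 and 2.67, 2.15 and 2.99 FPKM in FSB. KLF6 fell from 49.4 to 33.9 FPKM. NTRK2, a neurotrophin receptor, read 0.426, 0.505 and 0.0968 FPKM in FSB and 5.86, 3.74 and 1.64 FPKM after withdrawal (limma adjusted p 0.0051).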
